A study of Mus musculus with 3 samples.

Results

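The genes described here encode the proteins that prepare replication origins, unwind and copy DNA, supply its building blocks and restore chromatin behind the fork. There are 44 of them, chosen by name and role and not by their values. A gene was measured through every probe set (a group of short array probes for 1 transcript) whose platform annotation names it and no other gene. Of the 44 genes, 42 had such a probe set, among 12393 genes named in the same way on the array, and 76 probe sets measured them in all. Gins2 and Chaf1a were not analysed here.

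The samples were 3 mammary tumours of female NMRI mice, an outbred strain, hybridised to 1 array each. All 3 carried the WAP-SVT/t transgene, in which the whey acidic protein promoter drives 2 antigens of simian virus 40, large T and small t, in mammary epithelium. The design text names line 8 of these mice, and the labels give no age. The design text also names human and further mouse tumours, which were not analysed here, nor was any normal gland, so all values compare tumours that share both viral antigens. Tumours 1 and 2 share the first part of their titles, and whether they came from the same mouse is not given, so their values may not be independent.

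Large T antigen binds the retinoblastoma protein and its relatives, which otherwise hold E2F transcription factors inactive. E2F factors activate many genes of the S phase, among them many of those listed here. In the G1 phase the origin recognition complex (ORC), Cdc6 and Cdt1 load the ring-shaped MCM helicase onto origins, and Cdc45, GINS and Mcm10 then switch it on. Clamp, clamp loader and polymerases copy the strands, while ribonucleotide reductase, thymidylate synthase, thymidine kinase and dUTPase provide deoxynucleotides. These genes are widely used as signs of proliferation in the mammary gland and its tumours.

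The letters of E2F sites occurred in the promoters of many of these genes, and they are shown because E2F is the factor family that large T antigen releases. The search used TTTCCCGC, TTTCGCGC, TTTGCCGC and TTTGGCGC on both strands, in 300 bases around each start site (250 before, 50 after) from RefSeq, build GRCm38.p6. Matches that overlap in opposite directions were counted separately. Of the 44 genes, 37 had a promoter in that collection, and 14 of these (37.8%) held at least 1 match, against 3.29% of 17492 protein-coding genes with promoters of the same length. They stood in 4 of 5 MCM genes, 3 of 5 origin licensing genes and 3 of 6 polymerase and primase genes, while none of 5 nucleotide synthesis genes and none of 3 genes for subunits of the single-strand binding protein RPA did. A match is a description of these letters and not evidence of binding. The windows shown are 32 bases long, written 5′ to 3′ on the strand of the gene, with the matching letters in capitals. Lig1, Pold1, Dnmt1 and Uhrf1 also held matches, and their windows are not shown. Orc1 is at chr4:108579415-108579446 (plus strand), Cdc6 at chr11:98908001-98908032 (plus), Cdt1 at chr8:122568033-122568064 (plus), Mcm3 at chr1:20820274-20820305 (minus), Mcm5 at chr8:75109344-75109375 (plus), Mcm6 at chr1:128359796-128359827 (minus), Mcm7 at chr5:138172029-138172060 (minus), Rfc3 at chr5:151651199-151651230 (minus), Pola1 at chrX:93632274-93632305 (minus) and Pole2 at chr12:69228161-69228192 (minus).
Orc1: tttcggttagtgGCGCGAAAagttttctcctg
Cdc6: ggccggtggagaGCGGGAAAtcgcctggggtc
Cdt1: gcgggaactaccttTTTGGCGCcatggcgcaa
Mcm3: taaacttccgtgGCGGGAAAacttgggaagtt
Mcm5: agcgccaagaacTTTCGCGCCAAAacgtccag
Mcm6: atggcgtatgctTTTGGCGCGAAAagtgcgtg
Mcm7: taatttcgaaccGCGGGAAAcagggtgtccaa
Rfc3: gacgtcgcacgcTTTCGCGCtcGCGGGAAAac
Pola1: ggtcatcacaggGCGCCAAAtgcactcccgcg
Pole2: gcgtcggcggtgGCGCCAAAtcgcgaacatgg

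In Mcm5 and Mcm6 a pair of matches overlapped head to head, starting at positions -153 and -149 in Mcm5 and at -110 and -106 in Mcm6, which held another match at -47. The match of Orc1 started at -27. Positions are counted from the start site, where -1 is the base before it. The Mcm6 promoter at chr1:128359656-128359955 (minus strand) and the Orc1 promoter at chr4:108579204-108579503 (plus strand) are given whole. Mcm6 held the most matches. On the brightest probe set of each gene, Orc1 is the gene with such letters whose level differed most between tumours. Mcm3, Mcm6, Mcm7 and Rfc3 differed more on other probe sets.
Mcm6: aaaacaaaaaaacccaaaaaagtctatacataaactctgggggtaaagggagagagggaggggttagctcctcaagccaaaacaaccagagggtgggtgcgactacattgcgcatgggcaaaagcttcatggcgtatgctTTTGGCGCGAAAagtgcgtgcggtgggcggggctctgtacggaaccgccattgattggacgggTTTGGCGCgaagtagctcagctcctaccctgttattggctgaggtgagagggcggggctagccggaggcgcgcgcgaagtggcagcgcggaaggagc
Orc1: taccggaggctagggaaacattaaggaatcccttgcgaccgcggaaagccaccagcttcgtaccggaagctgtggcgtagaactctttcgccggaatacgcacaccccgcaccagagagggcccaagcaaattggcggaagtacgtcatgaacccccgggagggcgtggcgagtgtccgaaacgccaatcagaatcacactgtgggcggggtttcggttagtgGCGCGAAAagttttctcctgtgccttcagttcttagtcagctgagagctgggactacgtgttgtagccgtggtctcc

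**Figure D1:**
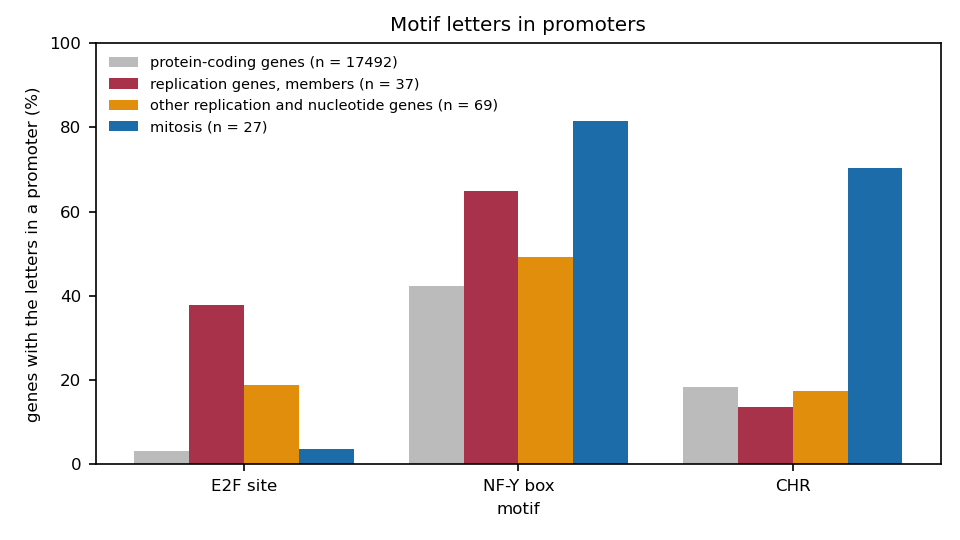
Percentage of genes with a promoter of 300 bases that held the letters of an E2F site, the NF-Y box or the CHR on either strand, for protein-coding genes (n = 17492), the replication genes described here (n = 37), other replication and nucleotide genes (n = 69) and mitosis genes (n = 27). E2F letters stood in 37.8% of the replication genes and 3.70% of the mitosis genes, whereas the CHR letters stood in 13.5% and 70.4%.

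The plot of promoter motifs sets the same genes beside a list of mitosis genes, which are expressed later in the cell cycle. The letters CCAAT (the NF-Y box), searched on both strands, stood in 64.9% of the replication genes, 81.5% of 27 mitosis genes and 42.3% of protein-coding genes. TTTGAA, the letters of the cell cycle homology region (CHR) through which late cell-cycle genes are held silent, stood in 13.5%, 70.4% and 18.5%. E2F letters stood in 1 of the 27 mitosis genes (3.70%) and in 13 of 69 other replication and nucleotide genes (18.8%). Overlaps of 1 motif with another were not removed.

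Levels are given as log2(intensity + 50) after quantile normalization, for the brightest probe set of each gene, and fold differences are on that scale, which understates differences of dim genes. A gene passed the low-signal filter when its mean level reached the median of all probe sets (7.40, an intensity of 119). Of the 42 genes 41 passed, and Orc1 alone passed only through its highest tumour. With 1 array per tumour no difference between tumours has a replicate check, and the number of arrays limits the precision. In whole tumours, fewer cells of a type and less RNA per cell cannot be told apart.

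The arrays were alike in overall brightness, with median intensities from 111 to 120. Markers of the labelled tissue varied in brightness. The luminal keratin genes Krt8 and Krt18 and the epithelial adhesion gene Epcam had intensities of at least 4156 in every tumour, whereas the hormone receptor genes Esr1 and Pgr had at most 16. Of the same list, Krt19 had 1590, 803 and 454 and Cldn4 had 1788, 669 and 111 in tumours 1, 2 and 3. The array of tumour 3 stood apart in the control probe sets for 18S ribosomal RNA, whose ratio of the 3′ to the 5′ probe set was 12.7 there against 0.50 and 0.40. The same ratio was 1.04, 1.21 and 1.26 for the actin control and 0.90, 1.21 and 0.81 for the Gapdh control in tumours 1, 2 and 3. Cell type markers also differed in tumour 3, which was the lowest for 44.1% of all genes past the filter. All 14 macrophage genes passed the filter and 13 were lowest there (summed intensity 23027, 21330 and 13236 in tumours 1, 2 and 3), and all 13 fibroblast and matrix genes passed, 8 of them lowest there (25035, 34244 and 19756). Of 8 endothelial genes 4 passed, all lowest there (980, 1401 and 686). Of 9 adipocyte genes 5 passed the filter, 4 of them highest there (2156, 1989 and 7879 for all 9). Of 13 luminal genes on the array 11 passed, 6 of them lowest in tumour 3 (33609, 29373 and 27707 for all 13). Of 7 basal genes 1 passed, also lowest there (2305, 1666 and 1384 for all 7). The 9 T and NK cell genes summed to at most 194 and the 4 B and plasma cell genes to at most 232 in any tumour, and no marker was listed at 0. The part of these markers and of the 18S controls in the values of tumour 3 was not tested.

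On their brightest probe sets, replication genes differed by less than 2-fold between tumours 1 and 2, and every difference past 2-fold involved tumour 3. The highest and lowest tumour were at least 2-fold apart for 6 of 41 genes (14.6%), against 24.8% of the 6951 genes that passed the filter. Between tumours 1 and 2 none of 41 genes differed 2-fold, against 8.26% of all genes. The corresponding counts were 5 genes (12.2%, against 12.9%) between tumours 1 and 3, and 4 genes (9.76%, against 15.9%) between tumours 2 and 3. These 3 comparisons share tumours. The median range over the tumours was 0.59 (log2) for these genes and 0.66 for all genes. Without tumour 3 it was 0.18 for these genes and 0.34 for all genes.

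Tumour 3 was the highest for 22 of 41 genes (53.7%), where it was highest for 30.2% of all genes. Tumour 2 was the lowest for 18 (43.9%), where it was lowest for 27.1% of all genes. With intensities as deposited tumour 3 was highest for 25 of 41 genes, and with array medians subtracted for 26. Tumour 3 minus the mean of tumours 1 and 2 had a median of 0.18 (log2) for these genes and -0.11 for all genes, and reached from -1.18 for Fen1 to 1.18 for Rpa3. For 2 of 41 genes, Orc1 and Rpa3, tumour 3 exceeded each of the others by 2-fold or more, against 1.61% of all genes. Since Orc1 passed the filter only through tumour 3, these counts were repeated, after the values were seen, over genes that pass without their highest tumour. Then 1 of 40 genes, Rpa3, was 2-fold above in tumour 3, against 1.37% of all such genes, and 5 of 40 (12.5%) differed 2-fold over the tumours, against 23.4%. For 1 gene, Fen1, it lay below each of them by that much, against 4.82% of all genes.

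**Figure D2:**
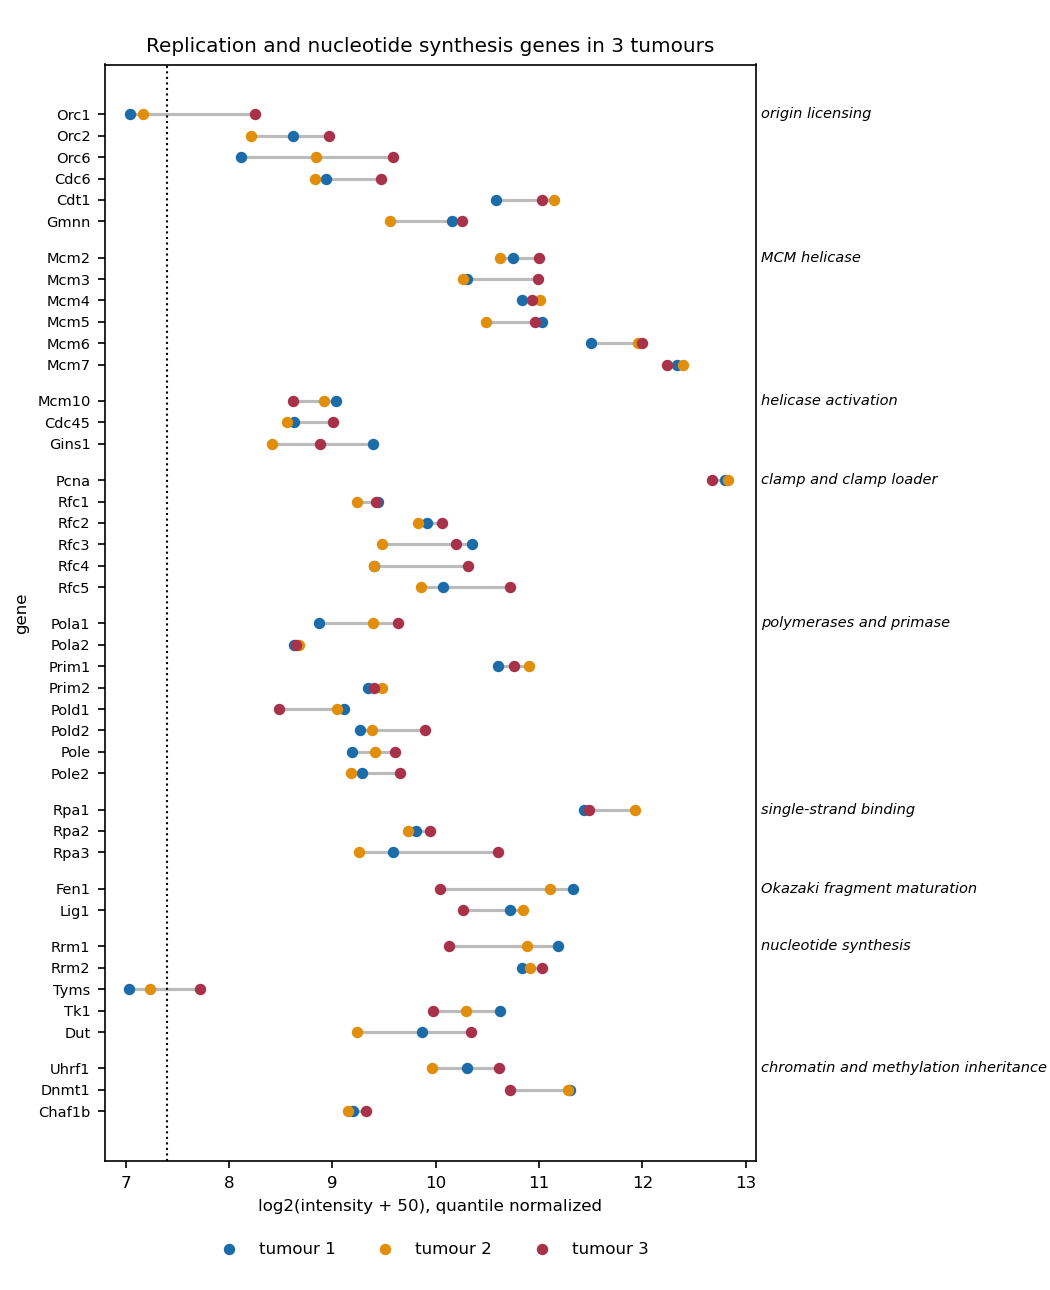
Level of each gene, as log2(intensity + 50) after quantile normalization (x axis), in tumours 1, 2 and 3 (points), by role of the gene product (y axis), for 42 genes. Grey bars span lowest to highest tumour and the dotted line is the low-signal filter at 7.40. Pola2 had the narrowest range (0.045) and Orc6 the widest (1.47).

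Among origin licensing genes, 5 of 6 were highest in tumour 3, against 30.2% of all genes, and none was lowest there, against 44.1%. With array medians subtracted 6 of 6 were highest there, against 31.7% of all genes. Orc1 is counted among them, although it passed the filter only through tumour 3. Orc6, which encodes the smallest subunit of the origin recognition complex, had deposited intensities of 222, 428 and 713 in tumours 1, 2 and 3. Every tumour stood at its own level, and the range of 1.47 (log2, 2.76-fold) was the widest among the 41 genes. Orc1, an ATP-binding subunit whose protein is degraded after the G1 phase, had intensities of 78, 97 and 248. Only tumour 3 reached the filter for this gene, and tumours 1 and 2 differed by 0.13 (log2). A further subunit, Orc2, had intensities of 334, 259 and 444. Cdc6, an ATPase that loads the helicase together with Cdt1, had 426, 425 and 656, with tumour 3 1.45-fold above both others. Cdt1 had 1440, 2160 and 2156, low in tumour 1, and was highest in tumour 2 after quantile normalization and as deposited but in tumour 3 with array medians subtracted. Gmnn, which encodes geminin, the inhibitor of Cdt1, had 1046, 727 and 1213. It was low in tumour 2, where Cdt1 was high, and the ratio of Cdt1 to Gmnn relative to its mean was -0.50, 0.66 and -0.16 (log2) in tumours 1, 2 and 3. The median deviation from the mean of the tumours was -0.24, -0.28 and 0.38 for the 6 licensing genes, with the same signs as deposited and with array medians subtracted.

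The 6 subunits of the MCM helicase form 1 ring in equal copies. On their brightest probe sets, their genes had the narrowest median range of the 9 role groups (0.44, log2), and none differed 2-fold. The median range was about that of the polymerase genes (0.44) and the helicase activation genes (0.45). Mcm7 had deposited intensities of 5017, 4995 and 5151, a range of 0.16 after normalization. Mcm4 had 1724, 1973 and 2004, and Mcm2 1623, 1519 and 2113. Mcm3 had the widest range of these sets (0.72, log2), with 1167 and 1188 in tumours 1 and 2 and 2080 in tumour 3. Mcm5 was low in tumour 2 (1983, 1389 and 2046) and Mcm6 was low in tumour 1 (2740, 3747 and 4305). Tumour 3 was highest for 3 of the 6 genes after quantile normalization but for 6 of 6 as deposited and with array medians subtracted, so the order of the tumours within this group depends on the scaling. Of all genes, tumour 3 was highest for 30.2%, 30.6% and 31.7% under these scalings.

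Of the factors that activate the loaded helicase, Gins1 differed most. This subunit of the GINS complex had intensities of 606, 304 and 416, and tumours 1 and 2 differed by 0.98 (log2, 1.97-fold), the widest difference between these tumours among the 41 genes. Cdc45, a partner of GINS in the active helicase, had 337, 343 and 459. Mcm10, which despite its name is no part of the ring, had 459, 453 and 337 and was lowest in tumour 3.

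Within the sliding clamp and its loader, Pcna differed little and several loader subunits more. Pcna, the ring that holds polymerases on DNA, had intensities of 7163, 6810 and 6927, at a mean level of 12.77 ± 0.079 (SD, n = 3). Rfc4 had 610, 653 and 1263, so that tumours 1 and 2 were together and tumour 3 stood 1.88-fold above both. Rfc5 had 990, 888 and 1702, also highest in tumour 3, and Rfc3 had 1213, 689 and 1152, lowest in tumour 2. The large subunit gene Rfc1 (630, 574 and 626) and Rfc2 (885, 875 and 1040) had ranges of 0.21 and 0.23 (log2). Rfc1 differed more on another probe set (407, 307 and 640), where the range was 1.02 and tumour 3 was highest, and a further one (300, 208 and 245) was highest in tumour 1 like the brightest. Tumour 2 was the lowest for 4 of the 6 genes, and for 5 of 6 as deposited, against 27.1% and 23.7% of all genes.

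None of the 8 polymerase and primase genes differed 2-fold on its brightest probe set, and 6 were lowest in tumour 1, where 28.8% of all genes were lowest in it. Pola1, the catalytic subunit of polymerase alpha, had intensities of 407, 646 and 744, the widest range of the group (0.76, log2). Its partner Pola2 had 338, 375 and 344, at 8.65 ± 0.023 (SD, n = 3), the narrowest range of all 41 genes. The primase genes Prim1 and Prim2 had ranges of 0.30 and 0.14 (log2). On their brightest probe sets, subunits of polymerase delta ran in opposite directions in tumour 3. Pold1, the catalytic subunit, had 489, 497 and 301, while the accessory subunit Pold2 had 551, 641 and 921. The other set of Pold1 (257, 256 and 379) was highest in tumour 3, as Pold2 was, so the contrast rests on 1 probe set. Pole and Pole2, of polymerase epsilon, had ranges of 0.41 and 0.47 and were highest in tumour 3.

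Among the subunits of the single-strand binding protein RPA, Rpa2 and Rpa3 had the same order of the tumours and Rpa1 another. Rpa3, the smallest subunit, had intensities of 699, 581 and 1556, with tumour 3 2.02-fold above both others and a range of 1.35 (log2). Rpa1, the largest subunit, had 2606, 3669 and 2990 and was highest in tumour 2. Rpa2 had 819, 818 and 951, a range of 0.21 on its brightest probe set, and 669, 485 and 1043, a range of 1.05 with the same order, on its other set. With the mean of both sets the range of Rpa2 was 0.63. Relative to Rpa1, Rpa3 deviated from its mean ratio by -0.046, -0.87 and 0.92 (log2) in tumours 1, 2 and 3.

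On their brightest probe sets, the genes that finish Okazaki fragments were lowest in tumour 3. Fen1, the nuclease that removes displaced flaps, had intensities of 2419, 2097 and 1025, with tumour 3 2.09-fold below both others. Its other set (1231, 850 and 951) was lowest in tumour 2, so this order of Fen1 rests on 1 probe set. The ligase gene Lig1 had 1594, 1767 and 1217, a range of 0.59 (log2). The median deviation of both genes in tumour 3 was -0.57, and both were lowest there also as deposited and with array medians subtracted.

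On their brightest probe sets, nucleotide synthesis genes held opposite orders. Rrm1, the large subunit of ribonucleotide reductase, had intensities of 2197, 1803 and 1097, with tumour 3 lowest and a range of 1.06 (log2, 2.09-fold). Rrm2, the small subunit whose amount follows the cell cycle, had 1725, 1834 and 2147, a range of 0.20. Both subunits make up 1 enzyme, and the ratio of Rrm1 to Rrm2 relative to its mean was 0.55, 0.16 and -0.71 (log2). The other set of Rrm1 (1744, 841 and 1818) was not lowest in tumour 3, so the ratio there rests on 1 probe set of each gene. Dut, which removes dUTP, had 858, 573 and 1283, low in tumour 2 and high in tumour 3 (2.15-fold). Thymidine kinase, Tk1, had 1484, 1214 and 972, lowest in tumour 3. Tyms, encoding thymidylate synthase, was below the filter in its mean, with intensities of 77, 104 and 159, and its 2 other probe sets had at most 19.

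Of the genes that restore chromatin and methylation, Dnmt1, the maintenance methyltransferase, had intensities of 2385, 2386 and 1699, equal in tumours 1 and 2 and lowest in tumour 3. Uhrf1, which brings Dnmt1 to newly copied DNA, ran the other way on its brightest probe set (1169, 962 and 1567). Its other set (1028, 646 and 723) was highest in tumour 1, so the contrast rests on 1 probe set. Chaf1b, a subunit of the histone chaperone CAF-1, had 520, 540 and 585, a range of 0.17 (log2).

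**Figure D3:**
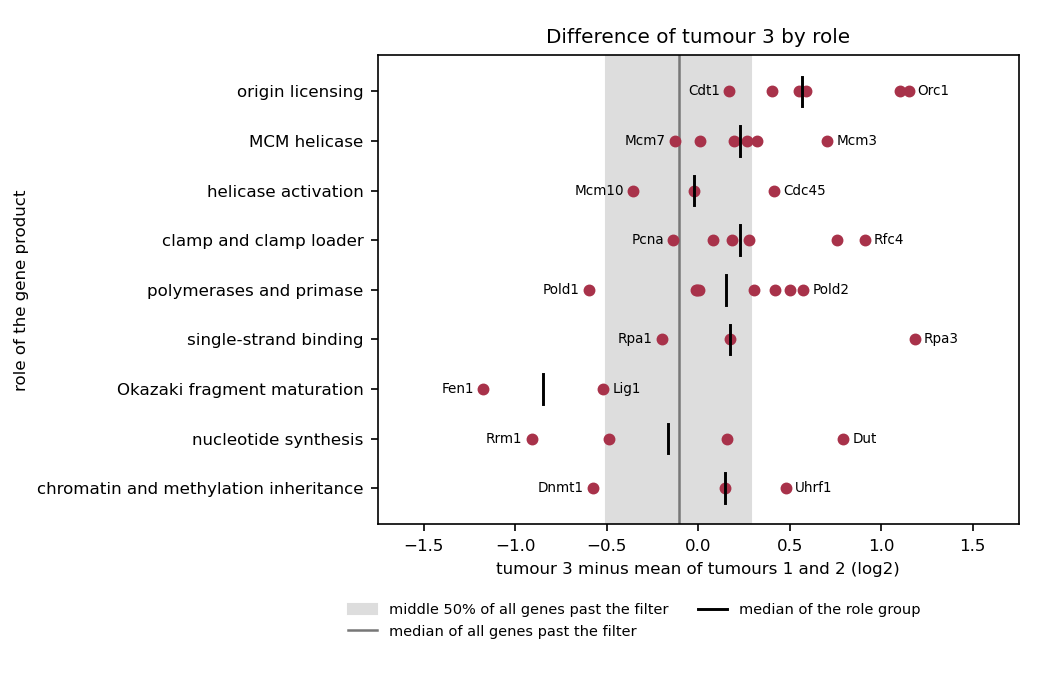
Level in tumour 3 minus the mean of tumours 1 and 2 (log2, x axis) for 41 genes by role (y axis), with 1 point per gene, the lowest and highest named, and a black tick at the group's median. The grey band is the middle 50% of all 6951 genes (-0.50 to 0.29) and the grey line their median (-0.11). The 6 origin licensing genes lie between 0.17 and 1.15, and Fen1 and Lig1 at -1.18 and -0.52.

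A second measurement of many of these genes came from probe sets other than the brightest. For 20 genes 27 such probe sets passed the filter. The highest and lowest tumour were at least 2-fold apart for 11 of the 27 (40.7%), where this held for 30.8% of 3483 such probe sets of all genes. Tumour 3 was the highest for 18 of 27 (66.7%), where this held for 49% of such probe sets of all genes. For the brightest probe sets of the same 20 genes the counts were 2 and 8. Brightest and other probe sets also differed in the whole table, where the median of tumour 3 minus the mean of the others was -0.097 (log2) for the brightest and 0.19 for the other probe sets of 2396 genes. In the replication genes it was 0.12 and 0.60. What sets these probe sets apart was not tested.

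Several MCM genes had wider ranges on their other probe sets. The second probe set of Mcm6 had intensities of 483, 910 and 1964, a range of 1.81 (log2), where the brightest had 0.49. Mcm7 had 434, 484 and 1143 on its dimmest probe set and 2186, 1431 and 3077 on another, both highest in tumour 3. The brightest was highest there in deposited intensities but not after quantile normalization. All 3 other probe sets of Mcm3 that passed the filter had the order of the brightest between tumours 2 and 3, with ranges of 0.92, 1.71 and 1.22. Mcm4 had 512, 872 and 1229 on its second probe set. The dimmest sets of Mcm4, Mcm6 and Mcm7 and 1 set of Mcm3 have identifiers ending in _x_at, which the array's maker gives to sets with probes that may bind other transcripts. The brightest sets of Fen1 and Rrm2 also have such identifiers. Outside the MCM group, the other set of Rfc3 had 636, 317 and 1217, a range of 1.80, and that of Prim1 had 426, 778 and 1122, highest in tumour 3 where the brightest was highest in tumour 2. Both other sets of Rrm2 were lowest in tumour 2 (820, 569 and 1162, and 931, 746 and 1663). For Rfc4 (504, 742 and 686) and Uhrf1 (1028, 646 and 723) the other sets were not highest in tumour 3, unlike the brightest. Without sets ending in _x_at, tumour 3 was highest for 13 of 21 (61.9%), where all genes gave 47.8%.

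Among the 6 genes that differed 2-fold, the second probe sets gave mixed answers. Rrm1 had 1744, 841 and 1818 on its other probe set, which was lowest in tumour 2 and did not repeat the low value of tumour 3. Fen1 had 1231, 850 and 951 on its other set, where tumour 2 was lowest and tumours 1 and 3 differed by 0.43 (log2), against 1.29 on the brightest. The other set of Dut kept the order (78, 69 and 95) but was below the filter. Orc1, Orc6 and Rpa3 had 1 probe set each. In the list as a whole, 23 of 27 other probe sets had the direction of the brightest between its highest and lowest tumour and 4 had the opposite. Counting a gene by any probe set past the filter, 15 of 41 genes (36.6%) differed 2-fold, against 32.5% of all genes.

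**Figure D4:**
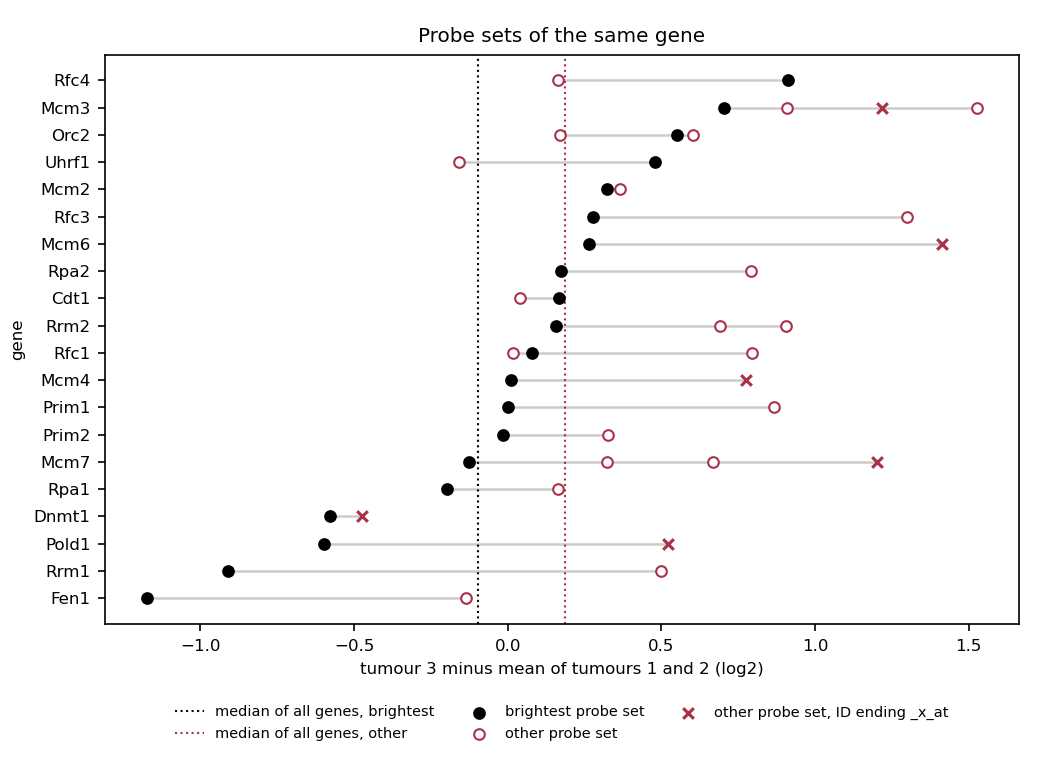
Level in tumour 3 minus the mean of tumours 1 and 2 (log2, x axis) for each probe set past the filter of the 20 genes (y axis) that had more than 1, with the brightest in black, others as open circles and those with identifiers ending in _x_at as crosses. Dotted lines mark the medians over 2396 genes (-0.097 brightest, 0.19 other). For Mcm6, Mcm7 and Rfc3 the other probe sets lie to the right of the brightest, and for Rfc4 and Uhrf1 to the left.

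Other genes of the same pathway, from a list of 78 that holds none of the 44, had similar summaries. The array measured 63 of them, and 62 reached the filter, with a median range of 0.54 (log2), against 0.66 for all genes. At least 2-fold apart were 11 genes (17.7%, against 24.8% of all genes), and tumour 3 was highest for 33 (53.2%, against 30.2%). Tumour 3 was highest for 9 of 11 further origin and helicase genes (81.8%, against 30.2% of all genes). They included Dbf4 (561, 492 and 1198) and Cdc7 (283, 446 and 697), the subunits of the kinase that fires origins, with ranges of 1.22 and 1.15. With the mean of probe sets these ranges were 0.62 and 0.95, below 2-fold. None of 16 other fork genes differed 2-fold, and the topoisomerase gene Top2b (578, 670 and 624) and Chtf18 (147, 165 and 137) had ranges of 0.11 and 0.14. Pold3, a further subunit of polymerase delta, had one of 0.16.

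Of the 25 nucleotide supply genes past the filter, 8 differed 2-fold, with a median range of 0.84 (log2). Samhd1, whose enzyme breaks down deoxynucleotides, had intensities of 1120, 775 and 184, low in tumour 3, with the widest range of the list (2.36). Adsl, of purine synthesis, had 419, 152 and 572, and the nucleoside diphosphate kinase gene Nme1 had 2961, 954 and 2828, both low in tumour 2. The pyrimidine synthesis gene Cad (406, 191 and 444) and Dctpp1 (1071, 498 and 942) had the same low tumour. Dck, a deoxynucleoside salvage kinase, had 451, 821 and 1343, and Shmt1, of folate metabolism, 392, 470 and 884, both high in tumour 3. Ctps2, a CTP synthase, was low there (473, 667 and 240). With the mean of probe sets the ranges of Ctps2 and Samhd1 fell below 2-fold (0.60 and 0.76), while those of Dck and Shmt1 widened (1.73 and 1.21). Among 10 chromatin assembly genes only Hells, a chromatin remodeller, differed 2-fold (489, 795 and 1382).

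Mitosis genes had values near those of the replication genes. Of 28 past the filter, 5 differed 2-fold (17.9%, against 24.8% of all genes) and 16 were highest in tumour 3 (57.1%, against 30.2%). Tumour 2 was the lowest for 15 (53.6%, against 27.1%), and the median range was 0.56 (log2), against 0.66. None differed 2-fold between tumours 1 and 2, against 8.26% of all genes. Racgap1 had the widest range, 1.31 (806, 547 and 1426), and Nusap1 the narrowest, 0.12. The proliferation marker Mki67 had 2450, 2815 and 2293 and was lowest in tumour 3, unlike most replication genes. The difference between the lists was not tested.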

How the data were processed

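Per the labels, total RNA of 3 tumours was extracted with RNAzol and made into biotinylated cRNA. The deposited table holds 1 intensity per probe set and tumour, and how the authors summarised, background-corrected or scaled it is not given in the sources used here. That the scale is linear follows from the values alone.

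Of 22690 probe sets 64 were controls and left out. A platform table gave 1 gene for 20380 of the 22626 others, several for 691 and none for 1555. The 2% trimmed means of the arrays lay up to 5.38% apart, past a limit of 5%, so arrays were quantile normalized. An offset of 50 was added before log2. Tumours are numbered in accession order, and all 3 form 1 group, so no test between groups was run. The genes, lists and settings were chosen with earlier results of these data known. Genes to name were those of the 44 at least 2-fold apart, below the filter, or widest or narrowest in a role group, other replication and nucleotide genes at least 2-fold apart or among the 3 widest or narrowest, and the widest and narrowest mitosis and E2F genes. Other named genes, the ratios of partner genes and the windows outside the MCM group and Orc1 were added after values were seen.

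Calls of a 2-fold range and of the highest tumour were checked on simulated arrays. Known rises were placed only in bright probe sets of tumour 3, so the check does not cover changes in dim genes. Alternatives were no scaling, median scaling, offsets of 16 and 100, mean of probe sets, no suffixed probe sets, no filter, the 75th percentile as filter, and leaving out each tumour. Python 3.11.15, numpy 2.4.6, pandas 2.3.3 and matplotlib 3.10.9 were used.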

Additional observations from a re-analysis of the deposited data

How the results depend on the processing

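The median range of the replication genes, the number at least 2-fold apart and their median deviation in each tumour moved by less than the spread between tumours, or by at most 1.5 times for counts, under the 8 alternatives of scaling, offset, probe set and filter, and also over genes that pass the filter without their highest tumour, a setting chosen after seeing the data. The median range lay between 0.57 and 0.63 (log2) and the count between 4 and 7 of the genes past each filter. The median deviation of tumour 3 was 0.12 as reported and 0.27 with the mean of probe sets. The spread used as the limit, the median SD of a gene over the tumours, is wider than the median deviations themselves. For them this limit could hardly be passed, so it says little about their stability. Their signs were the same under all of these settings.

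Leaving out a tumour gave median ranges from 0.18 to 0.47 and counts of 0 to 5, with the lowest of both without tumour 3. For the other replication and nucleotide genes the count of 11 became 4 to 6 with a tumour left out, since a range over fewer tumours is narrower. Median deviations lay between -0.071 and 0.035 in tumour 1, -0.11 and -0.035 in tumour 2, and 0.071 and 0.11 in tumour 3. The sign for tumour 1 turned without tumour 3, from -0.026 as reported to 0.035.

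Among the named genes the direction turned in genes with narrow ranges. The difference of Mcm7 between its highest and lowest tumour was -0.044 as deposited, -0.096 with array medians subtracted and -0.62 with the mean of probe sets. That of Pcna was -0.024 and -0.076 under the first 2 of these. With the mean of probe sets, that of Top2b was -0.25 and that of Pold3 -0.49, and the range of Samhd1 was 0.76 in place of 2.36. The cause of these turns was not tested. Dim values are limited by the unknown background of the deposited intensities.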

Other observations

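A list of E2F factors and their partners, which also holds Ccne1, Ccne2, Cdk2 and Cdc25a, was examined as well. The array measured 14 of the 17 genes in this list, and 13 reached the filter, with a median range of 0.67 (log2). Of the 13, 2 were at least 2-fold apart (15.4%, against 24.8% of all genes). The range was widest, 1.87, for the cyclin gene Ccne2, with intensities of 126, 266 and 602 in tumours 1, 2 and 3, while the cyclin gene Ccne1 was lowest in tumour 3 (167, 153 and 81). E2f5 had 145, 104 and 340, with tumour 3 above both others. E2f1, an activating E2F factor, had 332, 308 and 211 and was lowest in tumour 3, and E2f8 had 567, 511 and 430. E2f6 had the narrowest range, 0.19. Tumour 3 was the highest for 5 of the 13 genes (38.5%, against 30.2% of all genes) and the lowest for 5 (38.5%, against 44.1%).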
